A study of Mus musculus with 24 samples.

Results

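The quantity described here is the difference between 2 genotypes in their response to damaging exercise. For each gene it is the change after a downhill run in transgenic muscle minus the same change in wild-type muscle, on log2 signal, called the interaction below. A negative interaction means that the run moved the gene less far upward, or further downward, in transgenic than in wild-type mice. All 24 of the 24 arrays of the series enter it, 6 in each of 4 groups. The muscle was the gastrocnemius-soleus complex of the calf, from female mice aged 5 weeks. The exercised transgenic mice (TG run) carried the α7BX2 integrin transgene and ran downhill on a 20 degree slope at a speed of 17 m/min, for 40 min in all, after a warm-up of 2 min that began at 10 m/min. Their unexercised counterparts (TG rest) carried the same transgene. The exercised wild-type mice (WT run) ran by the same protocol, and the unexercised wild-type mice (WT rest) gave the baseline of that genotype. Muscle was taken 3 h after the run. The labels name neither the promoter of the transgene nor a founder line, and published descriptions of α7BX2 mice place it under the muscle creatine kinase promoter, which is active in striated muscle fibres. The replicates are treated as separate mice on the word of the labels, and p-values measure only the spread between these arrays.

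The α7β1 integrin is the main laminin-binding integrin of the muscle fibre. It spans the fibre membrane and ties laminin in the surrounding basement membrane to the actin skeleton and to signalling proteins, in parallel with the dystrophin-glycoprotein complex. Downhill running makes the leg muscles lengthen while they contract, which strains this link and is a standard way to injure fibres. Within hours of a bout, muscle is known to raise stress genes, metallothioneins, genes of fuel choice and inflammatory signals, and the interaction asks in which of these the genotypes part.

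Signal depth was similar across arrays. Median intensity ran from 105.2 to 137.9 per array, and 40.16% to 46.25% of probes were detected. Muscle fibre markers such as creatine kinase and fast myosin were detected on every array (12 of 12), with array means of 14.56 to 14.81 in TG run, 14.65 to 14.89 in TG rest, 14.66 to 14.84 in WT run and 14.67 to 14.85 in WT rest (log2 signal). Markers of other tissue differed far more. The mean of the lymphocyte markers was 5.87, 8.57 and 10.38 (lowest, median and highest array) in TG run and 5.83, 6.19 and 9.44 in TG rest. It was 5.88, 6.18 and 10.12 in WT run and 5.80, 7.42 and 9.95 in WT rest, and at least 6 of the 16 markers were detected on every array. High arrays, split at the widest gap in that mean, numbered 4 of 6 in TG run, 2 in TG rest, 2 in WT run and 3 in WT rest. Slow fibre markers ranged from 10.89 to 12.39 in TG run, 10.61 to 12.40 in TG rest, 11.08 to 12.62 in WT run and 10.60 to 12.51 in WT rest. The interaction of the lymphocyte mean was 1.42 and that of the slow fibre mean -0.48, so results below are also given from a fit that holds both means constant, called the covariate fit. Further fits used each mean alone as covariate, or only the arrays low in lymphocyte or in slow fibre markers. The part of other tissue in the results was not tested beyond these fits. Fewer cells of a type and less RNA per cell cannot be told apart in such bulk samples.

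**Figure D1:**
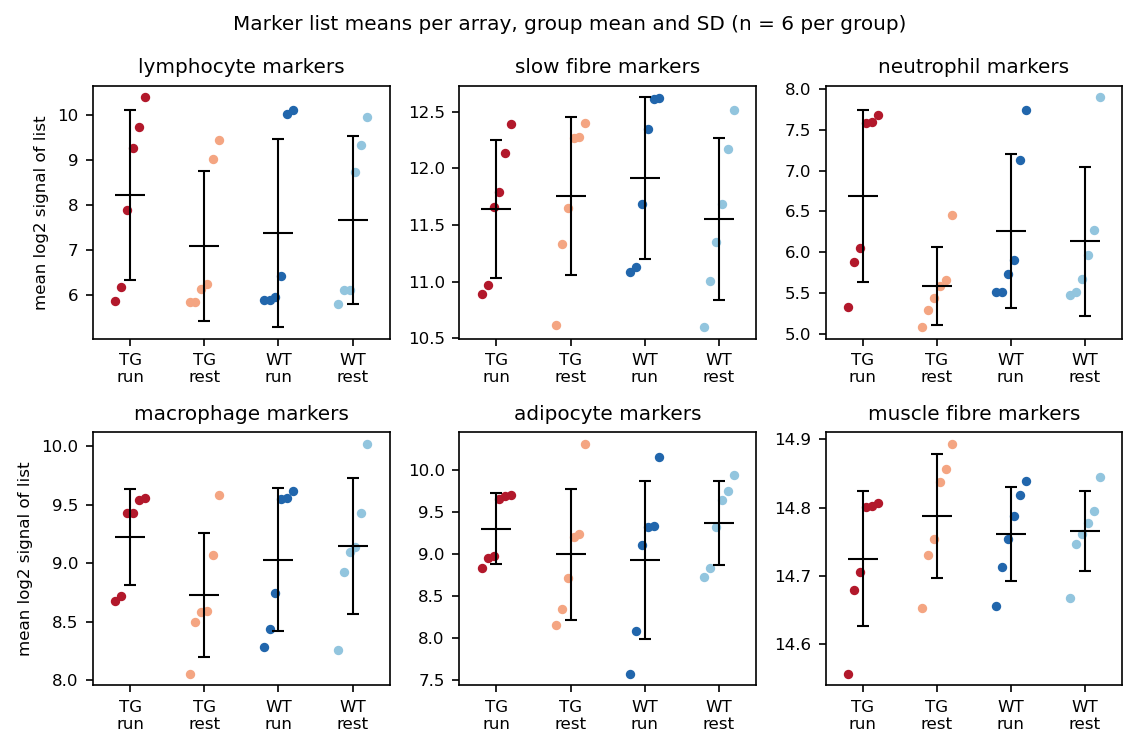
Mean log2 signal of 6 marker lists on each array (points), with the group mean and SD (bars), for TG run, TG rest, WT run and WT rest, 6 arrays each. Lymphocyte means fall into high and low arrays within every group, 4 of 6 high in TG run, while muscle fibre means stay between 14.56 and 14.89.

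No gene passed the test of a different response to the run in the 2 genotypes, at a Benjamini-Hochberg adjusted p under 0.05 in limma. The smallest p belonged to Hdac9, a repressor of MEF2 target genes, with an interaction of -0.93 ± 0.21 (SE). Among pathway lists the medians ran from -0.47 for circadian clock genes and -0.29 for genes of fuel choice to 0.23 for collagens and matrix enzymes and 0.26 for cytokines. The count of genes that passed was 0 of 14984 genes (0%), and the smallest adjusted p was 0.926. At an unadjusted p under 0.05 there were 352 genes (2.35%), 131 with a positive interaction (0.874%) and 221 with a negative one (1.47%), where 749.2 would be 5% of the genes tested. Of all genes, 8029 (53.6%) had an interaction below 0 and 6955 (46.4%) above it, with a median of -0.02. This lean depended on the scaling. With arrays set to a common median, 35.7% of genes were below 0, the median was 0.10, and the genes under 0.05 split into 255 positive and 67 negative. In the covariate fit again 0 genes passed, 585 had an unadjusted p under 0.05 (3.9%) with 50.1% of interactions below 0 and 49.9% above.

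The median standard error of an interaction was 0.25, from 0.15 at the lowest decile of genes to 0.46 at the highest. For 11609 genes (77.5%) the 95% interval lay wholly between -1 and 1, so that for each of these genes taken singly an extra change of 1 log2 unit or more lies outside the interval. The observed interaction exceeded 1 in size in 236 genes.

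Few genes passed for the response within a genotype. In TG mice 1 gene passed, Mt1 (0.00667% of the genes tested), and 713 had an unadjusted p under 0.05 (4.76%). In WT mice 0 passed (0%), and 322 had an unadjusted p under 0.05 (2.15%). The TG and WT responses share no arrays. Across the 14984 genes they correlated at r = -0.09 (Spearman's rho -0.09), in the 13 arrays low in lymphocyte markers at r = 0.041 (rho 0.017), and in the covariate fit at r = 0.34 (rho 0.28). These describe genes that share arrays within a genotype and are not independent replicates, and in the covariate fit both responses also share slopes estimated from all 24 arrays. An unadjusted p under 0.05 in both genotypes was found for 42 of the 14984 genes. Of these, 41 had the same sign in TG as in WT. The exception was Hdac9, at -0.42 in TG and 0.50 in WT, which restates its small interaction p from the same values. The share of all genes with the same sign was not counted. In the covariate fit the genes under 0.05 made up 11.6% in TG and 5.4% in WT. There 191 of the 14984 genes were under 0.05 in both, 179 with the same sign and 12 with opposite signs. In the arrays low in lymphocyte markers 53 of the 14984 were, 48 of them with the same sign.

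**Figure D2:**
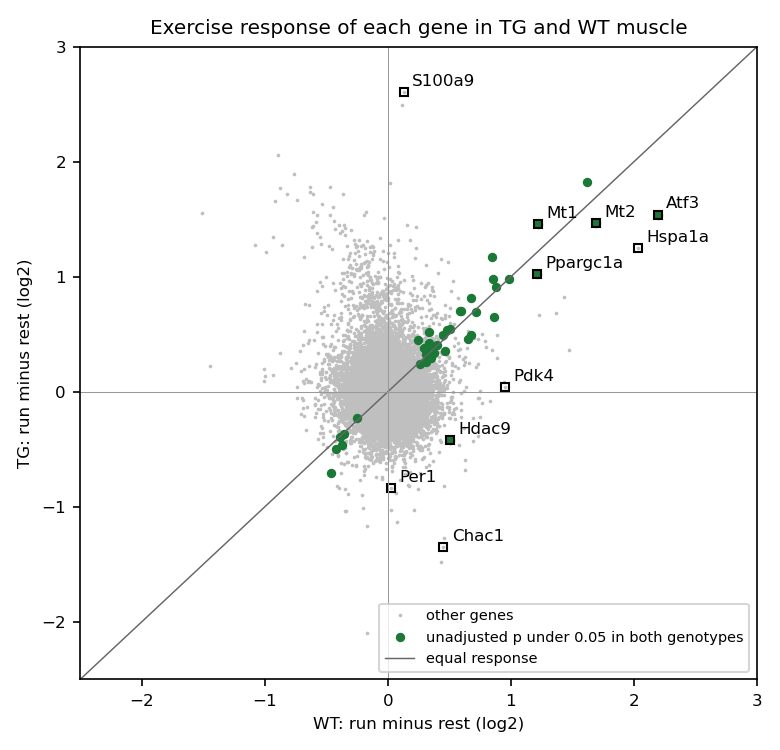
Run minus rest in TG mice (y axis, log2) against the same in WT mice (x axis, log2) for each of the 14984 genes, with the line of equal response. Green points mark the 42 genes with an unadjusted p under 0.05 in both genotypes, squares mark genes named in the text, and the vertical distance of a point from the line is its interaction.

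Hdac9, the gene of smallest p, encodes a class IIa histone deacetylase that binds MEF2 transcription factors and holds back their muscle targets. Its log2 signal was 4.73, 5.00 and 5.53 (lowest, median and highest) in TG run and 5.18, 5.39 and 5.97 in TG rest. It was 5.31, 5.44 and 6.00 in WT run and 4.89, 5.02 and 5.18 in WT rest. Thus exercised TG and unexercised WT muscle held the lower levels, the WT groups did not overlap, and the TG groups overlapped in part. The run minus rest difference was -0.42 ± 0.15 (SE) in TG and 0.50 ± 0.15 in WT, and the interaction -0.93 ± 0.21 (95% interval -1.35 to -0.50, adjusted p = 0.926). On a linear scale the TG run-to-rest ratio was 0.526 times the WT one. That size depends on the handling of dim signal, and the interaction ranged from -1.08 to -0.29 over the alternative settings. In the covariate fit the interaction was -0.87 ± 0.17 (adjusted p = 0.633). The probe is dim: it was detected on 3 of 6 arrays in TG run, 6 in TG rest, 6 in WT run and 3 in WT rest. Of the 20 measured genes of the class IIa deacetylase and MEF2 pathway, Hdac9 was the 1 with an unadjusted p under 0.05. The list's median was -0.11, with 12 of 20 below 0 (60%), near the 53.6% of all genes. That median was 0.0032 under median scaling, 0.016 with the slow fibre covariate and 0.035 in the arrays low in slow fibre markers. Next in the list came Mrtfa, a coactivator of serum response factor, at 0.29 ± 0.21, and Nfatc2, a calcineurin-dependent factor, at -0.38 ± 0.29. A second Nfatc2 probe gave -0.00085 ± 0.35.

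Among the other 9 genes of smallest p with a negative interaction, Chac1 had the most negative estimate. Chac1 degrades glutathione and is a target of the stress factor ATF4. Its log2 signal was 9.67, 10.52 and 12.56 in TG run and 11.16, 12.09 and 13.00 in TG rest, against 10.70, 11.34 and 12.29 in WT run and 10.37, 10.84 and 11.60 in WT rest. Of the exercised TG arrays, 4 of 6 lay below every unexercised TG array, and the WT groups overlapped. The interaction was -1.81 ± 0.56 (95% interval -2.97 to -0.65, adjusted p = 0.926), from -1.35 ± 0.40 in TG and 0.45 ± 0.40 in WT. It was -1.80 in the covariate fit, and -0.09 in the 13 arrays low in lymphocyte markers, which hold 2 arrays of TG run. In the unfolded protein and ATF4 list, which holds Chac1, 13 of 21 measured members were above 0, against 46.4% of all genes. The list's median was 0.17, or 0.08 with 14 of 21 above 0 in the covariate fit. Sdf2l1, a chaperone partner of the endoplasmic reticulum, had an interaction of 1.10 ± 0.54 and the disulfide isomerase Pdia4 one of 0.41 ± 0.23.

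Cpeb4, which binds the ends of mRNAs and sets their poly(A) tails, was detected on all 24 arrays. Its signal was 8.42, 8.76 and 9.00 in TG run and 8.56, 8.96 and 9.16 in TG rest, against 8.74, 9.00 and 9.36 in WT run and 8.13, 8.46 and 8.90 in WT rest. Unexercised WT muscle thus held the lowest median of the 4 groups. The interaction was -0.68 ± 0.21, and -0.53 in the covariate fit. Ldhb, the lactate dehydrogenase subunit of heart and slow muscle, had medians of 5.91 in TG run, 6.41 in TG rest, 6.52 in WT run and 6.05 in WT rest. Its interaction was -1.04 ± 0.34, and -0.84 ± 0.24 with both marker means held constant. Dpysl5, a neuronal collapsin response mediator, reached 4.62 to 5.50 in TG run and 5.26 to 6.35 in TG rest, against 4.67 to 6.11 in WT run and 4.88 to 5.92 in WT rest. Its probe was detected on 2 arrays of TG run and on 6, 5 and 5 of the other groups, and the interaction was -0.98 ± 0.32.

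The remaining genes of this kind were faint or uneven between probes. Wdr93 had an interaction of -0.62 ± 0.17, the solute carrier gene Slc22a15 one of -0.55 ± 0.15, and Lce1e, a cornified envelope gene of skin, one of -0.93 ± 0.29. They were detected on 16, 10 and 19 of the 24 arrays. Tm9sf2, a membrane protein of the endosome and Golgi, had -0.63 ± 0.21 on its brightest probe, -0.20 and 0.98 on 2 dimmer ones. Slc17a7, a vesicular glutamate transporter, was not detected on any array of WT rest, so no fold is given for it.

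In the opposite direction the 10 genes of smallest p had interactions of 0.45 to 1.09. The largest belonged to Ang, the secreted ribonuclease angiogenin. Its signal was 7.23, 7.76 and 8.32 in TG run and 6.82, 7.47 and 7.92 in TG rest, against 5.63, 6.02 and 6.22 in WT run and 5.65, 6.90 and 7.31 in WT rest. The exercised groups did not overlap, TG run lying above WT run on every array. The interaction was 1.09 ± 0.37 (95% interval 0.31 to 1.87, adjusted p = 0.926), and a second probe gave 0.29 ± 0.21. Mouse angiogenin has close paralogs, and whether the probes separate them was not tested.

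Impdh1, an enzyme of guanine nucleotide synthesis, had 7.43, 7.61 and 7.88 in TG run and 6.86, 7.17 and 7.52 in TG rest, against 6.61, 7.21 and 7.57 in WT run and 7.07, 7.33 and 7.70 in WT rest. Exercised TG muscle was highest by median, and each group overlapped the others. The interaction was 0.62 ± 0.20, and 0.53 in the covariate fit. A second, dimmer Impdh1 probe gave -0.15 ± 0.29. Ppp2r2b, a regulatory subunit of protein phosphatase 2A, reached 5.09 to 5.61 in TG run and 4.61 to 5.37 in TG rest, against 4.84 to 5.56 in WT run and 5.41 to 5.87 in WT rest. Its interaction was 0.68 ± 0.21, on a probe detected on 6, 3, 3 and 6 arrays of these groups. Acta2, the smooth muscle actin, was bright, with medians of 13.16 in TG run, 12.76 in TG rest, 12.87 in WT run and 13.08 in WT rest, and an interaction of 0.49 ± 0.17. Myo1e, a membrane-linked myosin, had an interaction of 0.50 ± 0.17, and -0.31 ± 0.21 on a second, dimmer probe. Traf3ip2, an adaptor of the interleukin 17 receptor, had 0.49 ± 0.15, and Cdyl, a chromatin corepressor, had 0.45 ± 0.15. Klhl15, which brings targets to a cullin ubiquitin ligase, had 0.71 ± 0.23, and 0.32 ± 0.22 on a second probe. Camk1d, a calcium and calmodulin kinase, had 0.59 ± 0.21 on 14 detected arrays, and -0.17 ± 0.34 on a second probe that was as dim. The odorant receptor Olfr536 had 0.58 ± 0.18 on 9 detected arrays.

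**Figure D3:**
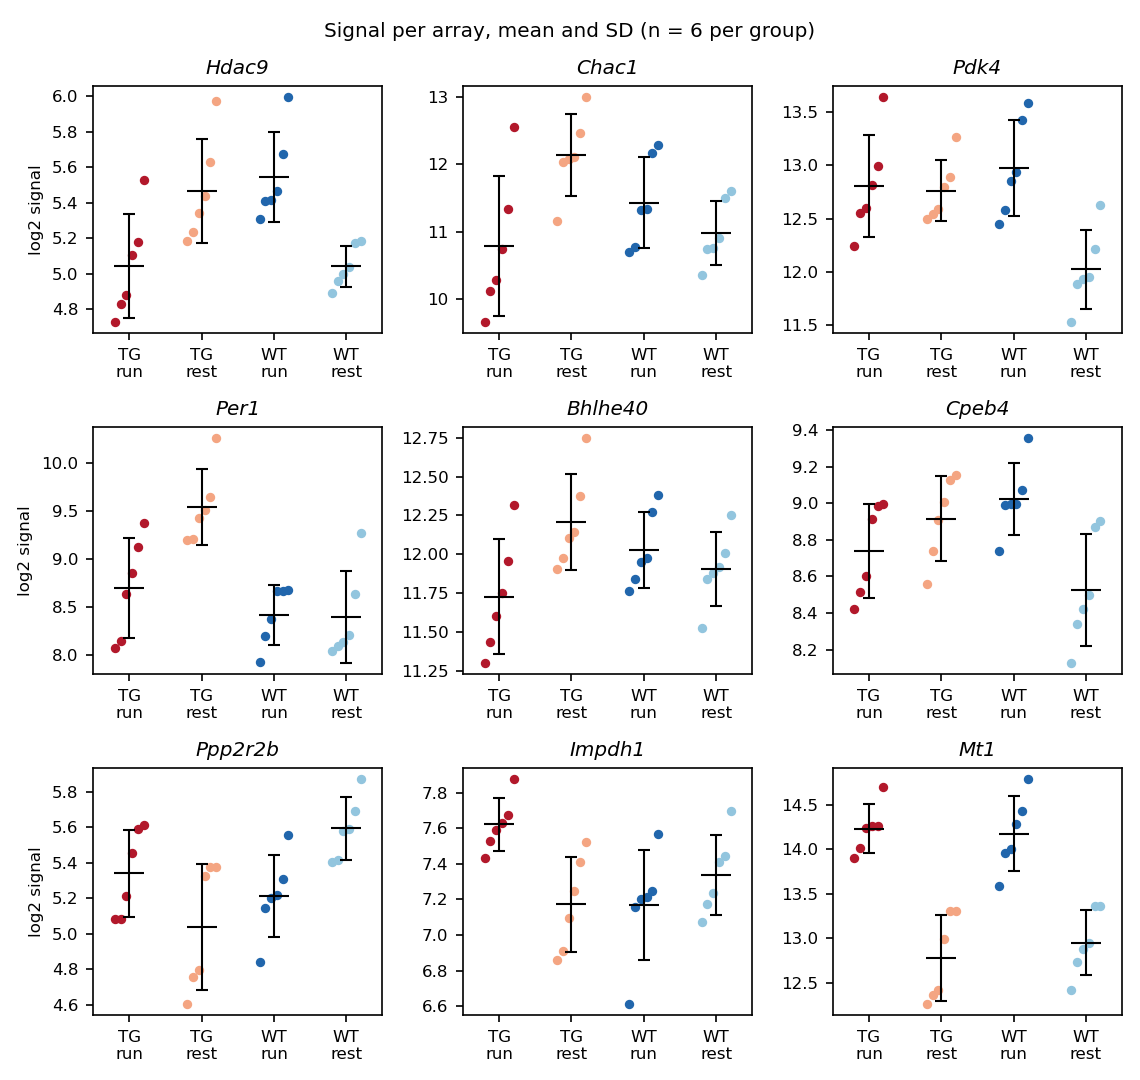
Log2 signal of 9 genes on each array (points), with group mean and SD (bars), for TG run, TG rest, WT run and WT rest, 6 arrays each. Hdac9 is low in TG run and WT rest, Per1 is highest in TG rest, Pdk4 is lowest in WT rest, and Mt1 is high in both exercised groups.

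The circadian clock list had the most negative median interaction of the 22 pathway lists. Clock proteins form a daily feedback loop in which activators switch on the Period genes and their own repressors, and in muscle the loop times fuel use. Of the 13 measured members, 12 had an interaction below 0, against 53.6% of all genes, and the list's median was -0.47, against -0.02. None passed (0 of 13), and 2 had an unadjusted p under 0.05, both negative, against 1.47% of all genes in that direction. The median response of the list was -0.43 in TG and 0.03 in WT. In the covariate fit the median was -0.25 with 9 of 13 below 0, and it stayed between -0.64 and -0.24 over 18 alternative settings.

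Per1, the Period gene that stress hormones and light also induce, had 8.07, 8.74 and 9.37 in TG run and 9.19, 9.47 and 10.26 in TG rest, against 7.92, 8.52 and 8.68 in WT run and 8.04, 8.17 and 9.27 in WT rest. Unexercised TG muscle was highest by median, and the other 3 groups covered a like range. The interaction was -0.86 ± 0.34 (95% interval -1.56 to -0.16, adjusted p = 0.926), from -0.84 ± 0.24 in TG and 0.02 ± 0.24 in WT. A second Per1 probe gave -0.79 ± 0.32. In the arrays low in lymphocyte markers the interaction of Per1 was -0.32. Bhlhe40, a repressor of the loop, had 11.30, 11.68 and 12.32 in TG run and 11.91, 12.13 and 12.75 in TG rest, against 11.76, 11.96 and 12.38 in WT run and 11.52, 11.90 and 12.26 in WT rest. Its 4 groups all overlapped, with TG rest highest by median. Its interaction was -0.61 ± 0.24, -0.49 in the covariate fit and -0.29 in the arrays low in lymphocyte markers. Ciart, a repressor that the clock itself drives, had medians of 6.10 in TG run, 6.99 in TG rest, 6.32 in WT run and 6.40 in WT rest, and an interaction of -0.81 ± 0.40. Across the list, interactions ran from -0.86 to 0.37, and the 1 member above 0 was Arntl, which encodes the activator BMAL1, at 0.37 ± 0.28. The sources give no hour of dissection, and its part in these values was not tested.

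The promoters of Per1 and Ciart are shown because they hold the E-box CACGTG to which clock activators bind, and they were chosen for that after the search. Each runs for the 250 bases before an annotated start, from the RefSeq table of build GRCm38.p6, and capitals mark the E-box. The first is chr11:69098699-69098948 on the plus strand, before the first of 2 Per1 starts. The second is chr3:95882229-95882478, read on the minus strand, where Ciart has 3 copies.
Per1: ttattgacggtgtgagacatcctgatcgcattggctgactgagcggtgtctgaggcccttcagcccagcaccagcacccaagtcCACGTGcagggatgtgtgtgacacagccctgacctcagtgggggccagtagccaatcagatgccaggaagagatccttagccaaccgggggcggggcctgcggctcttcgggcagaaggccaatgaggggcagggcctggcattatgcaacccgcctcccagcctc
Ciart: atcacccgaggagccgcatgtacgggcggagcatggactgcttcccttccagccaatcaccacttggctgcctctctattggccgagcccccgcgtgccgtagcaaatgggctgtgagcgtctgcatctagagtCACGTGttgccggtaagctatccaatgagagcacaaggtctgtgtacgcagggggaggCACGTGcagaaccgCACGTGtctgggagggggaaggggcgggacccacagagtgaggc

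Of the 13 clock genes, 11 had a promoter in that table. The E-box, a palindrome and so the same on both strands, was present in 3 of the 11 (Ciart, Per1 and Tef), against 9.71% of 9318 tested genes with a promoter and 6.02% of all 32851 promoters. The cAMP response element TGACGTCA was in 0 of 11, against 2.82% of the tested genes. Its core, TGACG or on the other strand CGTCA, was in 2 of 11 (Cry2 and Per1), against 29.2%, and this core also lies inside the full element. The D-box of PAR leucine zipper factors, TTATGTAA, TTACATAA or TTACGTAA on either strand, was in Per3 alone, against 0.826%. These are matches of letters, with no binding measured.

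Genes of fuel choice had negative interactions as well. Of 29 measured members 27 were below 0, with a median of -0.29, and 24 of 29 with a median of -0.23 in the covariate fit. The list shares Pdk4 and Angptl4 with the glucocorticoid list, and the clock list shares Per1 with it. None passed (0 of 29), and 2 had an unadjusted p under 0.05, both negative, against 1.47% of all genes in that direction. Pdk4, the kinase that shuts pyruvate dehydrogenase and turns muscle from glucose to fat, had 12.24, 12.71 and 13.64 in TG run and 12.49, 12.69 and 13.26 in TG rest, against 12.45, 12.90 and 13.59 in WT run and 11.53, 11.94 and 12.63 in WT rest. Unexercised WT muscle was low, and the other 3 groups covered the same range. The run minus rest difference was 0.04 ± 0.23 in TG and 0.95 ± 0.23 in WT, and the interaction -0.91 ± 0.32 (95% interval -1.57 to -0.25, adjusted p = 0.926), or -0.93 in the covariate fit. Pfkfb3, which makes a sugar phosphate that activates glycolysis, had medians of 5.52 in TG run, 6.62 in TG rest, 5.74 in WT run and 5.98 in WT rest. Its interaction was -0.69 ± 0.32, with the unexercised TG group highest by median, and -0.27 in the arrays low in lymphocyte markers. Fabp3, the fatty acid binding protein of heart and muscle, had -0.42 ± 0.21.

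Several known early exercise genes had sizeable responses in both genotypes, with interactions near 0 and wide intervals. Mt1, a zinc-binding metallothionein, had 13.90, 14.25 and 14.70 in TG run and 12.26, 12.71 and 13.31 in TG rest, against 13.59, 14.14 and 14.79 in WT run and 12.42, 12.91 and 13.36 in WT rest. In each genotype every exercised array lay above every unexercised one. Mt1 rose in TG mice 2.74-fold (1.46 ± 0.22, adjusted p = 0.013), and this call ended, to 0 genes, in several other settings. It ended without TG rest 3, 8 or 11 or TG run 3, under median scaling, in the 12 TG arrays alone, with a replicate block by number or by genotype and number, and in the arrays low in lymphocyte or slow fibre markers. In WT mice the difference was 1.22 ± 0.22 (adjusted p = 0.161). The interaction of Mt1 was 0.23, with a 95% interval of -0.41 to 0.87. A larger TG response by more than 0.87, or a smaller one by more than 0.41, lies outside it.

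Mt2 had a run minus rest difference of 1.46 in TG and 1.70 in WT, and an interaction of -0.23 (95% interval -1.20 to 0.74). Mt3 had -0.88 in TG and 0.06 in WT, and an interaction of -0.94 ± 0.46. Ppargc1a, the coactivator that drives mitochondrial genes after exercise, stood at 1.03 in TG and 1.21 in WT (interaction -0.19, 95% interval -1.04 to 0.66). Fkbp5, a glucocorticoid receptor target, stood at 0.98 in TG and 0.86 in WT (interaction 0.12, 95% interval -0.69 to 0.94). For Mt1, Mt2, Ppargc1a and Fkbp5 an interaction of 0 lies inside an interval more than 1 log2 unit wide, which does not show that the genotypes responded alike.

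The stress genes had still wider intervals. Atf3, an early stress factor, had 7.02, 8.32 and 10.30 in TG run and 6.05, 6.81 and 7.98 in TG rest, against 7.17, 9.58 and 10.51 in WT run and 6.24, 6.95 and 7.69 in WT rest. Exercised arrays were spread over more than 3 log2 units in both genotypes and overlapped the unexercised ones. The interaction was -0.65 (95% interval -2.37 to 1.07). Hspa1a, the inducible heat shock chaperone, had medians of 8.57 in TG run, 7.74 in TG rest, 10.29 in WT run and 7.73 in WT rest. Its interaction was -0.78 (95% interval -2.61 to 1.04), and whether the probe separates it from the near-identical Hspa1b was not tested. Over the heat shock list 19 of 24 members were below 0, with a median of -0.09, and 13 of 24 in the covariate fit. The immediate early list had 12 of 21 below 0 (57.1%, near the 53.6% of all genes) and a median of -0.12. The glucocorticoid list had 13 of 22 (59.1%, also near it) and -0.15, and the metallothionein and zinc list 7 of 9 and -0.23. None of these lists had a member that passed. The immediate early median was 0.08 under median scaling and 0.0057 with probes averaged, and -0.02 without TG rest 11. The glucocorticoid median was -0.07 in the covariate fit, 0.06 with a block by number, 0.17 in the arrays low in lymphocyte markers and 0.13 in those low in slow fibre markers, and -0.03 without TG rest 5. The metallothionein and zinc median was -0.10 in the covariate fit.

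**Figure D4:**
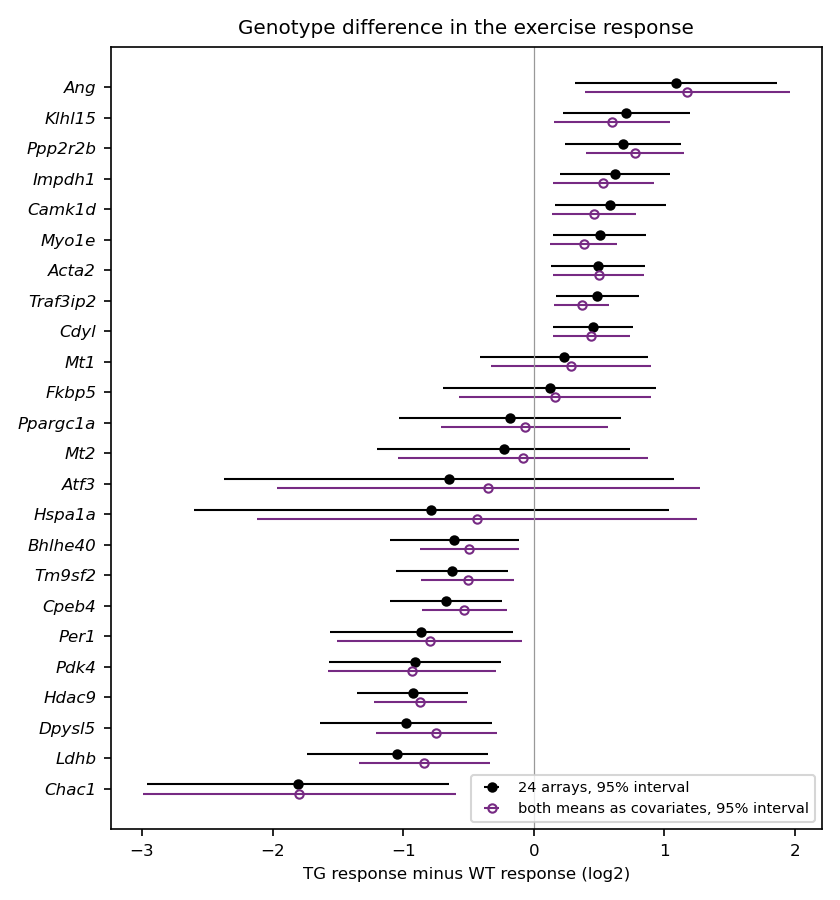
Interaction (TG response minus WT response, log2) of 24 named genes, with 95% intervals, from all 24 arrays without covariates (filled) and with the lymphocyte and slow fibre marker means as covariates (open). The intervals of Mt1, Fkbp5, Ppargc1a, Mt2, Atf3 and Hspa1a span 0, and Chac1 has the most negative estimate at -1.81.

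For the integrin itself no difference passed the test. Itga7, the α7 chain, had 8.09, 8.94 and 9.60 in TG run and 8.11, 9.17 and 9.74 in TG rest, against 7.90, 8.98 and 9.54 in WT run and 8.23, 9.02 and 9.37 in WT rest. The 4 groups covered the same range. The interaction was -0.23 ± 0.44 on this probe and -0.55 ± 0.47 on a second one. The sources do not say whether either probe matches the transgene, so these levels do not check the genotype labels. Itgb1, its β1 partner, had an interaction of -0.08 ± 0.29. The integrin and adhesion list had 15 of 28 members below 0 (53.6%, the same share as over all genes) and a median of -0.00. With both covariates 7 of 28 were below 0, with a median of 0.09, and the sign of the median differed in 10 of 18 alternatives (up to 0.10, under median scaling) and without 12 of the 24 arrays. Itgb6, an epithelial integrin chain, had -0.77 ± 0.43. Tln2, the talin of muscle attachment sites, had -0.64 ± 0.40, and Ilk, the integrin-linked kinase, had 0.22 ± 0.14.

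The other anchor of the membrane, the dystrophin-glycoprotein complex with its repair proteins, had 13 of 17 members below 0 and a median of -0.23, or -0.05 in the covariate fit. None passed (0 of 17). The 1 member with an unadjusted p under 0.05 was positive, Anxa2, an annexin that gathers at membrane tears. Anxa2 had 12.97, 13.30 and 13.47 in TG run and 12.52, 12.96 and 13.19 in TG rest, against 12.91, 13.21 and 13.33 in WT run and 12.96, 13.29 and 13.41 in WT rest. Unexercised TG muscle was lowest by median, and the interaction was 0.38 ± 0.18. A second, much dimmer Anxa2 probe gave 0.04 ± 0.30. The β-sarcoglycan Sgcb had -0.34 ± 0.19, and -0.04 ± 0.20 on a second probe. The repair protein Trim72 had -0.31 ± 0.22.

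Genes of the extracellular matrix leaned positive. Of 28 measured collagens and matrix enzymes 22 were above 0, against 46.4% of all genes, with a median of 0.23. None passed (0 of 28), and Col1a2 alone had an unadjusted p under 0.05. In the covariate fit 24 of 28 were above 0, with a median of 0.25 and 5 members positive at an unadjusted p under 0.05, against 2.17% of all genes. Col1a2, a chain of type I collagen, had 10.84, 11.31 and 11.98 in TG run and 10.45, 10.98 and 11.40 in TG rest, against 11.14, 11.34 and 11.85 in WT run and 11.31, 11.69 and 11.81 in WT rest. Unexercised TG muscle was low and unexercised WT muscle high, and the exercised groups covered a like range. The interaction was 0.62 ± 0.28, and 0.69 in the covariate fit. Serpinh1, the collagen chaperone, had 0.39 ± 0.20, and Lox, which cross-links collagen, 0.46 ± 0.23. The fibroblast markers had 11 of 11 above 0 and a median of 0.32. They share genes with this list, among them Col1a1, Col1a2, Dcn and Lum, so the 2 lists are not independent. Their array means ran from 10.68 to 11.59 in TG run and 10.43 to 11.31 in TG rest, against 10.62 to 11.55 in WT run and 10.74 to 11.42 in WT rest. The part of fibroblast content in the matrix values was not tested.

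The laminin and basement membrane list, the ligand side of the integrin, had 13 of 23 above 0, against 46.4% of all genes. Its median was 0.07, or 0.23 with 17 of 23 above 0 in the covariate fit. Sparc, a collagen-binding matrix protein, had 0.39 ± 0.20, the basement membrane collagen Col4a2 0.39 ± 0.25 and Col4a3 -0.41 ± 0.27. Angiogenesis genes had 13 of 19 above 0 and a median of 0.19, with Vegfa, the main vessel growth factor, at -0.34 ± 0.20 and its coreceptor Nrp1 at 0.31 ± 0.19. Endothelial markers had 11 of 12 above 0 and a median of 0.26, and their array means ran from 9.43 to 10.04 in TG run and 9.36 to 9.92 in TG rest, against 9.43 to 9.91 in both WT groups.

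Most lists of the fibre's own machinery had small negative medians, several of which changed sign in another setting. Over all genes 53.6% were below 0. Atrophy genes of the FoxO programme had 12 of 16 below 0 and a median of -0.17, or -0.12 in the covariate fit and 0.02 in the arrays low in lymphocyte markers. Fbxo30, a ubiquitin ligase subunit of muscle wasting, had 8.31, 8.45 and 9.09 in TG run and 8.34, 8.79 and 8.92 in TG rest, against 8.54, 9.01 and 9.45 in WT run and 8.11, 8.58 and 8.87 in WT rest. Its 4 groups overlapped, with WT run highest by median. Its interaction was -0.57 ± 0.25, the 1 member with an unadjusted p under 0.05, and Fbxo32, the ligase atrogin-1, had -0.88 ± 0.45, and -0.00538 in the arrays low in lymphocyte markers. Strain-sensing genes of the sarcomere had 18 of 22 below 0 and a median of -0.24, and in the covariate fit 12 of 22 and -0.02. Among them Xirp2, an actin-binding protein of attachment sites, had -1.12 ± 0.57. The neuromuscular junction list had 13 of 15 below 0 and a median of -0.22, or -0.05 in the covariate fit, with acetylcholinesterase (Ache) at -0.50 ± 0.34. Proteasome genes had 19 of 26 below 0 and a median of -0.11, or -0.04 in the covariate fit and 0.006 in the arrays low in slow fibre markers. The cap subunit Psmd6, the 1 member under 0.05, had -0.54 ± 0.23, and -0.17 ± 0.23 on a second, dimmer probe. Respiratory chain genes had 28 of 35 below 0 and a median of -0.10, or 21 of 35 and -0.04 in the covariate fit and 0.06 in the arrays low in lymphocyte markers. Translation and growth genes had 10 of 17 below 0 (58.8%, near the share of all genes). Their median was -0.12, or -0.06 in the covariate fit and 0.0015 under median scaling. Genes of p53 and growth arrest had 13 of 17 and -0.11, or -0.09 in the covariate fit and 0.02 in the arrays low in either marker list. Satellite cell and regeneration genes had 6 of 13 below 0 and a median of 0.02, or 0.12 in the covariate fit and -0.14 in the arrays low in lymphocyte markers. No member of these lists passed. The slow fibre markers had 12 of 12 below 0 and a median of -0.51. That median was -0.02 once both means were held constant, and holding their own mean constant sets it near 0 in advance.

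Cytokines and chemokines had 24 of 28 members above 0 and a median of 0.26, with a median response of 0.37 in TG and 0.03 in WT. In the covariate fit 14 of 28 were above 0 and the median was -0.00. Cxcl12, a chemokine that stromal cells make, was the 1 member with an unadjusted p under 0.05. It had 11.51, 12.07 and 12.41 in TG run and 11.39, 11.68 and 11.90 in TG rest, against 11.49, 11.93 and 12.15 in WT run and 11.61, 12.11 and 12.29 in WT rest. All 4 groups overlapped, with TG rest lowest by median. The interaction was 0.55 ± 0.21, and 0.46 in the covariate fit. The monocyte chemokine Ccl8 had 1.74 ± 1.07, and Cish, a brake on cytokine signalling, -1.12 ± 0.82. Lymphocyte markers had 15 of 16 above 0 and a median of 1.60. That median was -0.03 in the covariate fit, where holding their own mean constant sets it near 0 in advance.

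Neutrophil genes also had large positive estimates. So did the lymphocyte chemoattractants Cxcl13, at 2.95 ± 2.36 and 0.61 in the covariate fit, and Ccl19, at 2.07 ± 1.84 and 0.23, both named after their values were seen. S100a9, an abundant calcium-binding protein of neutrophils, had 6.48, 9.73 and 11.50 in TG run and 4.78, 6.62 and 8.89 in TG rest, against 7.22, 7.78 and 11.06 in WT run and 6.37, 8.09 and 11.60 in WT rest. The run minus rest difference was 2.61 ± 0.95 in TG and 0.13 ± 0.95 in WT, and all 4 groups overlapped. The interaction was 2.48 ± 1.35 (95% interval -0.31 to 5.27, adjusted p = 0.926), 1.28 ± 0.73 in the covariate fit, and 0.57 in the arrays low in lymphocyte markers. Its partner S100a8 had 2.38 ± 1.43, and 1.10 in the covariate fit, and Retnlg, a resistin-like neutrophil protein, had 1.79 ± 0.82. The 15 neutrophil markers were all above 0, with a median of 1.06, or 0.32 in the covariate fit, 0.00 in the 13 arrays low in lymphocyte markers and 0.62 without WT rest 10. Macrophage markers had 15 of 15 above 0 and a median of 0.50, or 0.30 in the covariate fit. Their array means ran from 8.68 to 9.56 in TG run and 8.06 to 9.58 in TG rest, against 8.29 to 9.62 in WT run and 8.26 to 10.02 in WT rest. Adipocyte markers had 12 of 12 above 0 and a median of 0.82. That median was 0.37 in the covariate fit and -0.02 in the arrays low in slow fibre markers. Cidec, a lipid droplet protein, had 1.47 ± 0.66. None of these markers passed (0 of 42).

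**Figure D5:**
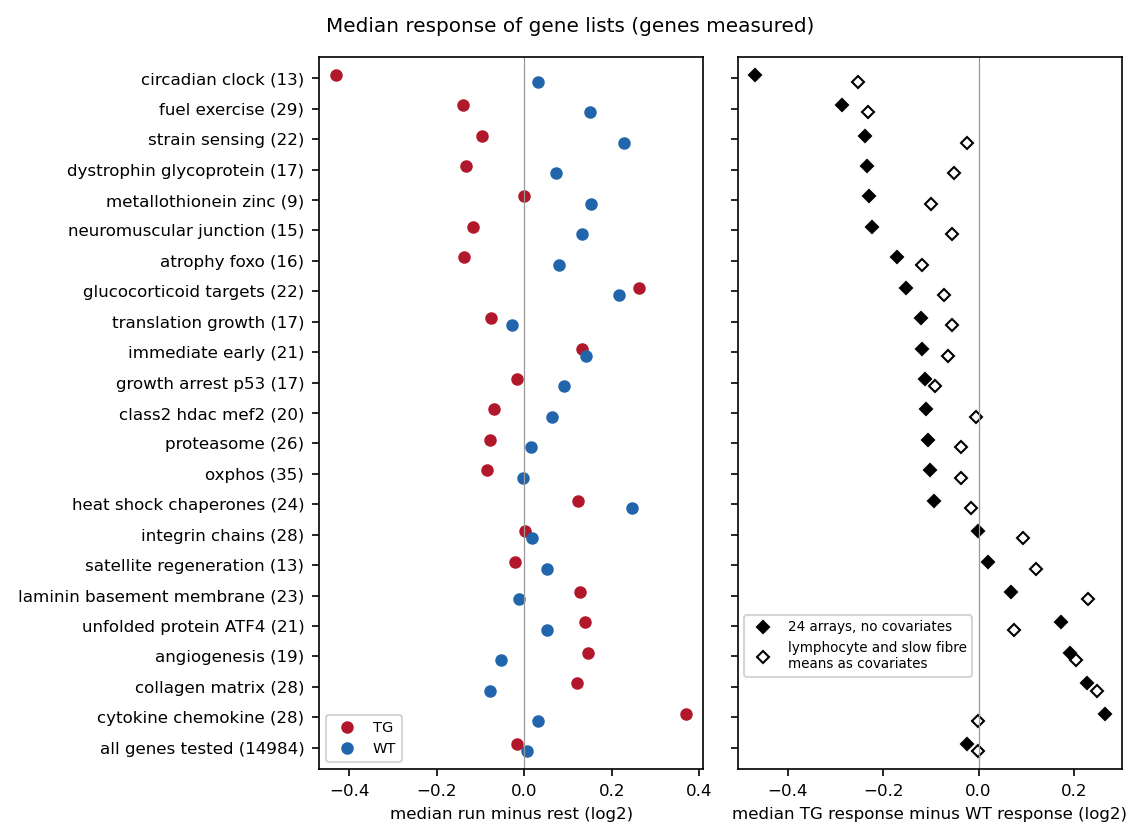
Median response of each of the 22 pathway lists and of all genes. The left panel gives run minus rest (log2) in TG (red) and WT (blue), and the right panel the interaction without covariates (filled) and with both marker means as covariates (open); the clock list has the most negative interaction in both, -0.47 and -0.25, and that of the cytokine list is 0.26 without and -0.00 with covariates.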

How the data were processed

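Total RNA of 24 mouse muscles was measured on Illumina bead arrays, and groups and replicate numbers come from the labels. The deposited table gives 1 intensity per probe and array, not normalised, with a deposited detection p-value beside it. The authors also deposited log2 values, and the submitters' processing notes list limma 3.20.8 and R 3.1.1. Those log2 values differed from the values computed here by at most 0.0269 and served as an alternative. The sources give no slide or scan date.

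The function neqc of limma 3.58.1 in R 4.3.3 corrected the background and set equal quantiles (offset 16, detection p-values in place of control probes). Probes detected at p under 0.05 on at least 6 arrays were kept, 21788 of 45281. Where a symbol had several probes, the one brightest on average was used, which gave 14984 genes, 11574 with a symbol. In the platform annotation 34885 probes had 1 symbol, 18 several and 10378 none, and 0 symbols were updated. The offset shrinks log2 differences of dim probes, while subtracting the background widens them.

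A model of 4 group means was fitted with lmFit and eBayes to all 24 arrays. Tests were two-sided, with Benjamini-Hochberg adjustment over all 14984 genes and a threshold of 0.05. The covariate fit adds the array means of the lymphocyte and slow fibre markers, which are themselves measured on these arrays. Lists are described by counts and medians, with no set test. The code of the fit was run on simulated data with noise drawn separately for each gene. That setting lacks the shared lymphocyte and slow fibre signal of these arrays, so it does not test the fit under it.

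The members, the gene lists and the alternatives were chosen with earlier results of these data known. Genes are named by a rule: the 10 genes of smallest p in each direction, since none passed, the 3 of smallest p in each list, a fixed set (Itga7, Itgb1, Mt1, Mt2, Pdk4, Ppargc1a, Atf3, Hspa1a, S100a8, S100a9, Per1, Chac1 and Fkbp5) and genes called within a genotype. Clone and predicted-gene names were left out. Arntl, Cry2, Tef, Per3, Cxcl13, Ccl19, Angptl4 and Lum were named after their values or sequences were seen. Promoters are from a RefSeq table of GRCm38.p6.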

Additional observations from a re-analysis of the deposited data

Results flagged for a closer look

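Arrays far from the rest of their group were looked for in 32 named genes and 12 marker lists, 176 groups in all, and 12 groups held such an array by Dixon's test, where chance gives about 1 in 20. For the neutrophil list WT rest 10 was high at 7.90, against 6.27 in the next array, and for S100a8 the same array was high at 13.00, against 9.28. For the erythrocyte list TG run 1 was high at 8.47 and TG rest 11 at 7.86. Ppargc1a was high at 11.55 in TG run 3, and Itgb1 at 8.39 in TG run 4. Cdyl was low at 6.20 in TG run 11 and at 6.03 in TG rest 4. Camk1d was high at 5.51 in WT run 6 and low at 4.82 in WT rest 11. Wdr93 was low at 4.77 in TG run 5 and at 5.14 in TG rest 8. All values are log2 signal.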

How the results depend on the processing

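The count of genes with a genotype difference in response was 0 under all 18 alternatives and without each of the 24 arrays in turn, while the genes at an unadjusted p under 0.05 numbered 216 to 2911, the most with array weights. Of 125 named genes, 108 kept the sign of the interaction under every alternative and 122 without each array, and none passed under any of them. Hdac9 ranged from -1.08 to -0.29 over the alternatives and from -1.02 to -0.83 without single arrays, with a smallest adjusted p of 0.25 with array weights. In TG mice the count of called genes, 1 in the main setting, was 0 under median scaling, in the 12 TG arrays alone, with a replicate block by number or by genotype and number, and in the lymphocyte-low and slow-low arrays, and 7 with the slow fibre mean as covariate. It ranged from 0 to 1 without single arrays. In WT mice, where it was 0, it was 2 with array weights (Mt1 and Mt2) and ranged from 0 to 1 without single arrays (Mt2, without WT rest 3). The interaction changed sign as follows, and the cause was not tested. Median scaling gave 0.043 for Mag and 0.098 for Itgb1, and the mean of probes gave 0.0495 for Tm9sf2. The block by number gave 0.14 for Itgb1, 0.17 for Mt2 and 0.061 for Ppargc1a, and the block by genotype and number 0.20 for Itgb1 and 0.55 for Mt2. The lymphocyte covariate gave 0.0308 for Mag, 0.087 for Itga7 and 0.0632 for Itgb1, the slow fibre covariate 0.12 for Itga7, 0.13 for Itgb1 and 0.0183 for Ppargc1a, and both 0.16 for Itga7 and 0.12 for Itgb1. The lymphocyte-low arrays gave 0.0311 for Ier3, 0.95 for Cish, 0.0214 for Gadd45g, -0.00231 for Vcam1 and 0.00538 for Itgb1. The slow-low arrays gave 0.11 for Slc39a10, 0.0408 for Cdh15, 0.0498 for Actn3, -0.15 for Adig, -0.10 for Kera, 0.0266 for Mag, 0.10 for Slc4a1, 0.20 for Itga7, 0.15 for Itgb1, 0.17 for Mt2, 0.47 for Ppargc1a and 0.10 for Hspa1a. Without single arrays Fkbp5 ranged from -0.0573 to 0.31, Itgb1 from -0.21 to 0.0608 and Ppargc1a from -0.41 to 0.000585.

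The labels do not say what a shared number marks, so the numbers were not taken to pair arrays in the main fit. Same-numbered run and rest arrays correlated in their deviations at -0.23 to 0.51 over 5 TG numbers and -0.13 to 0.71 over 3 WT numbers. In each genotype 1 run array correlated best with the rest array of its own number. WT run 9 and WT rest 10, both high in lymphocyte markers, correlated at 0.86, so these values do not settle pairing. The replicate blocks changed no count of interactions (0). As a random block the number had a correlation of 0.11 within numbers. Hdac9, Wdr93, Slc22a15, Lce1e, Dpysl5, Camk1d, Olfr536, Ppp2r2b, Klhl15 and Slc17a7 were detected on part of the arrays. So were Sdf2l1, Pfkfb3, Mrtfa, Nfatc2, Col4a3, S100a9, Retnlg, Prox1, Klf1, Cdh19, Adig and Slc4a1.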

Other observations

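The other marker lists gave these values. Lymph node stroma markers had 10 of 11 interactions above 0 and a median of 0.62, or 0.10 in the covariate fit, with Prox1, a lymphatic endothelial factor, at -0.57 ± 0.26. Tendon markers had 6 of 9 above 0 and a median of 0.09, nerve sheath markers 2 of 8 and -0.07, and erythrocyte markers 2 of 6 and -0.22. These medians changed sign in 1, 2 and 1 of 18 alternatives. The array means of these lists overlapped between all 4 groups. Klf1, an erythroid factor, had -0.45 ± 0.22 and Cdh19, a Schwann cell cadherin, -0.38 ± 0.18.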
